A study of Homo sapiens with 2 samples.

Results

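Genes of the response to low oxygen and of glycolysis were examined in the established cancer cell line OECM1, of head and neck origin, with and without a vector for the microRNA let-7i. The 34 members were chosen by name, with earlier results of these data known. They fall into 15 genes of the HIF pathway and hypoxia response and 19 genes of glucose uptake and glycolysis. All probe sets annotated with 1 of these symbols alone were taken, 75 of the 54675 on the array, and they named 33 of the members. CA9 was not analysed here. The series holds 19775 genes named in this way.

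The study compared 1 culture transfected with pmCherry-let7i, labelled OECM1-let7i, with 1 culture carrying the pmR-mCherry empty vector, labelled OECM1-mCherry. Transfection was stable, per the series' design text, and both cultures share the OECM1 background, the mCherry reporter and growth in RPMI with fetal bovine serum. No low-oxygen treatment is named for either culture, and the labels do not say whether the transfected cells were a pool or 1 clone. Each group had 1 array, so nothing checks a difference against replicates, no p-value is given and every difference compares 2 cultures.

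The microRNA that the vector adds is shown here because it is the only named difference between the cultures. A microRNA pairs with messenger RNAs mainly through its seed, bases 2 to 8, which is in capitals. The sequence is the RefSeq mature form (GRCh38.p14, chr12:62603691-62603712, plus strand), and mature microRNAs are not measured by an array of this kind.
hsa-let-7i-5p: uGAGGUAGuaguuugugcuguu

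HIF is a transcription factor made of an oxygen-regulated alpha subunit, such as HIF1A, and the constant subunit ARNT. When oxygen is present, prolyl hydroxylases of the EGLN family mark the alpha subunit for destruction by way of VHL, and when oxygen is short the subunit persists and turns on genes for vessel growth, mitochondrial turnover, matrix synthesis, glucose uptake and glycolysis. The control lies mostly in the stability of the HIF protein, which an RNA array does not see. Many glycolytic enzymes are HIF targets as well, and tumour cells often keep them at high levels without a lack of oxygen.

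The values are MAS5 signals, a brightness per probe set that the authors scaled so that the arrays have the same trimmed mean (500.1 on both), so levels of different probe sets cannot be set against each other. A signal counted as measured at or above the median of its array (the floor), which was 88.0 for OECM1-mCherry and 79.5 for OECM1-let7i. Each gene was represented by its brightest probe set, and log2 ratios (let-7i over empty vector) were centred on the median of the 11140 genes measured on both arrays. The scatter of 1 probe set, from 5807 genes with 2 measured probe sets, had an SD of 0.25 on the log2 scale, falling from 0.34 at the dimmest signals to 0.15 at the brightest. This scatter is probe noise and leaves out how cultures vary. Of the epithelial markers named by a probe set, EPCAM, CDH1 and SFN were measured on both arrays, whereas the basal keratins KRT5 and KRT14 were below the floor on both. EPCAM (log2 ratio of -0.71) and CDH1 (-0.42) were lower with let-7i, and SFN, the brightest, had signals of 15939 and 16192 (0.02). Of the markers of fibroblasts, leukocytes and endothelium, 1 of 6, 1 of 4 and 1 of 4 were above the floor, and the summed signals of the whole marker lists went from 512 to 598, from 251 to 209.9 and from 389.5 to 446. Their part in the results was not tested.

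Among the HIF pathway and hypoxia response members, 14 of 14 with a probe set had a higher signal with let-7i, where 50% of all genes measured on both arrays did by construction of the centring. The median of their log2 ratios was 0.40, or 1.32-fold, and that of all 12284 genes measured on 1 or both arrays was -0.01. In such bulk RNA, more cells that express a gene and more RNA per cell cannot be told apart. NDRG1 was at least 2-fold higher, and BNIP3, VEGFA and EGLN3 were at least 1.5-fold higher. Past 2-fold upward lay 1 member of the 32 above the floor, against 1.06% of all genes, and past 1.5-fold upward lay 4 members, against 4.18% of all genes. No member was 2-fold or 1.5-fold lower, where 1.38% and 5.93% of all genes were.

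**Figure D1:**
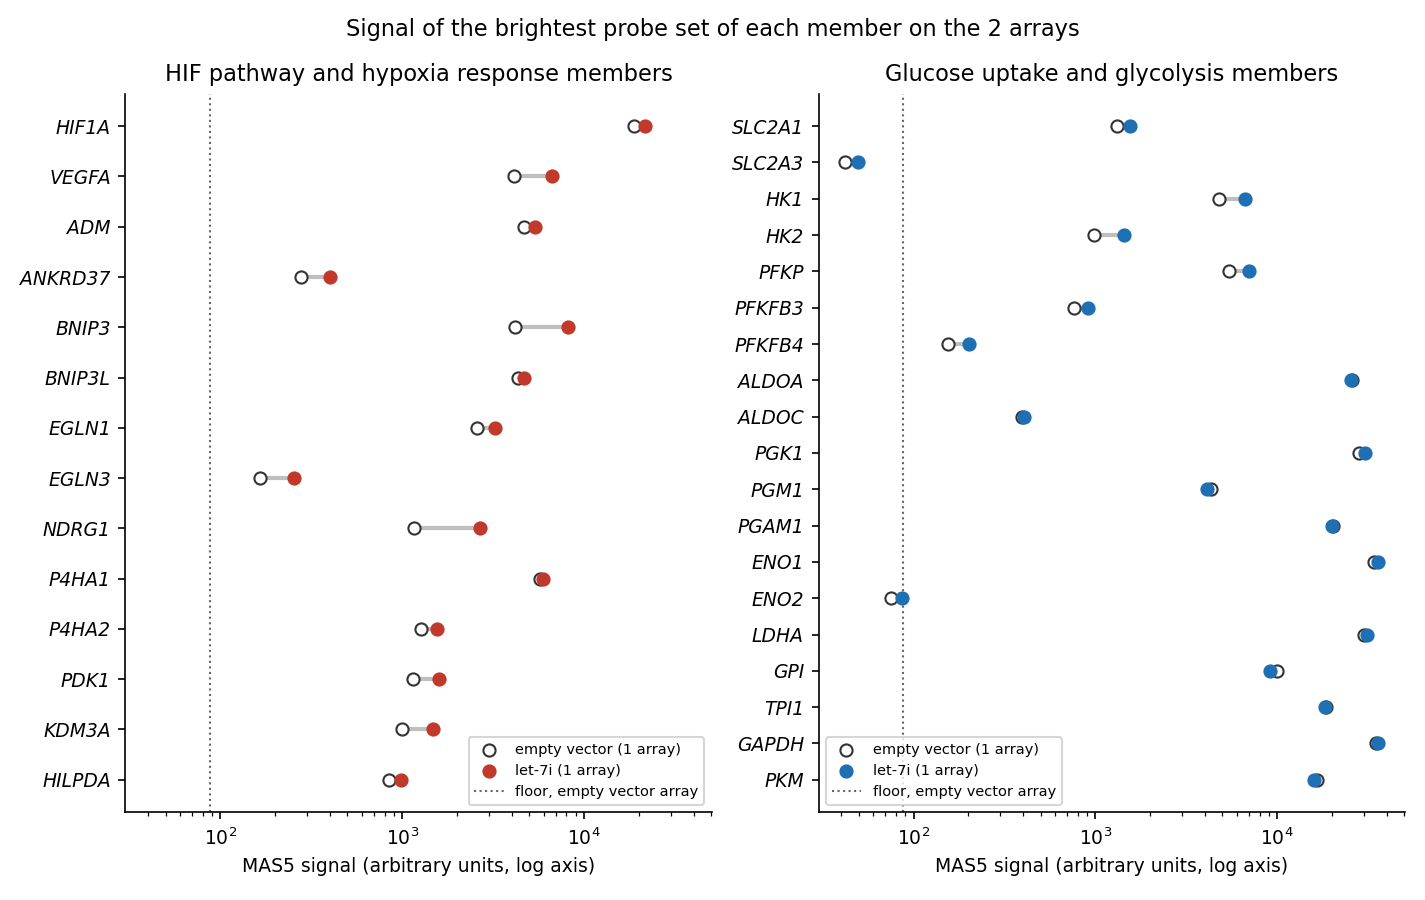
Signal of the brightest probe set of each member on the empty vector array (open circles) and the let-7i array (filled circles), on a log axis in arbitrary MAS5 units, with the dotted line at the empty vector floor of 88.0. Each circle is 1 array, and in the left panel every filled circle lies to the right of the open one, most clearly for NDRG1, BNIP3 and VEGFA.

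HIF1A, the oxygen-regulated subunit itself, had signals of 18713 (empty vector) and 21536 (let-7i), the order used for every pair of signals here. The difference of 0.20 on the log2 scale is 1.29 times the SD of 1 probe set at such signals. It was 0.15 with lowess centring and 0.10 with quantile normalization. Of all genes with a mean signal of at least 10000, 66.1% were higher with let-7i, at a median of 0.04. Of the EGLN hydroxylases that mark HIF1A for destruction, EGLN1 and EGLN3 had a higher signal with let-7i. EGLN2 was below the floor on both arrays (27.3 and 4.18). EGLN1, the main oxygen sensor of the family, had signals of 2578 and 3251, with log2 ratios from 0.15 to 0.33 in the 3 probe sets above the floor. EGLN3, a hydroxylase that is itself induced by HIF, had dim signals of 165 and 254, a 1.54-fold higher level, and a second probe set (138 and 252) gave a log2 ratio of 0.86. Where the floor was the 65th percentile of each array, EGLN3 was only bounded, at 0.14 or more.

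NDRG1, a stress-responsive gene whose product is linked to differentiation and to restraint of metastasis, had the largest ratio of all members. In its 1 probe set the signals were 1166 and 2678, so the let-7i array was 2.29-fold higher. The log2 ratio of 1.20 was 7.74 times the SD of 1 probe set at this brightness, and 0.530% of the 11140 genes had a ratio as high. That probe set can match several transcripts, and no other was available for NDRG1.

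BNIP3, a mitochondrial protein that promotes mitophagy and cell death, had signals of 4154 and 8134, a 1.95-fold higher level. Its second probe set (1607 and 2796) gave a log2 ratio of 0.79 beside 0.97 for the first, so both pointed the same way. The related BNIP3L, with a similar role, had signals of 4310.4 and 4658 and a log2 ratio of 0.11. A second BNIP3L probe set (2974 and 2584) gave -0.21, which left the direction for BNIP3L unsettled. The ratios of the paralogs differed by more than the scatter of 1 probe set, whichever of their probe sets were paired.

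VEGFA, the growth factor that drives vessel formation, had signals of 4103 and 6699.5 in its brightest probe set, a 1.63-fold higher level. All 4 of its probe sets were measured and higher, with log2 ratios of 0.70, 0.61, 1.30 and 0.58 from the brightest to the dimmest. The highest of these came from a probe set with signals of 689 and 1704. ADM, the precursor of the vasodilator adrenomedullin, had signals of 4654 and 5407 and a log2 ratio of 0.21, which is 1.38 times the SD of 1 probe set.

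KDM3A, a histone demethylase whose gene is induced by HIF, had signals of 998 and 1472, a 1.47-fold higher level. PDK1, a kinase that inhibits pyruvate dehydrogenase, had signals of 1154 and 1604, and its 3 probe sets gave log2 ratios between 0.42 and 0.59. ANKRD37, an ankyrin repeat protein, had dim signals of 279 and 402 and a log2 ratio of 0.52. KDM3A and ANKRD37 had 1 probe set above the floor each. The ratios of these 3 genes were 1.55 to 2.68 times the SD of 1 probe set at their signals.

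The remaining members of the group had small ratios. P4HA1 and P4HA2 encode catalytic subunits of collagen prolyl hydroxylase, and HILPDA encodes a lipid droplet protein. P4HA1 had signals of 5707 and 5921 and a log2 ratio of 0.05. P4HA2 had signals of 1274 and 1546 and a ratio of 0.28, but a dimmer probe set (348 and 271) gave -0.37, and the mean over its probe sets was -0.02. HILPDA had signals of 845 and 986 and a log2 ratio of 0.22, and its other probe set (822 and 742) gave -0.15. With the mean over the probe sets of each gene, 12 of the 14 genes were above 0.

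**Figure D2:**
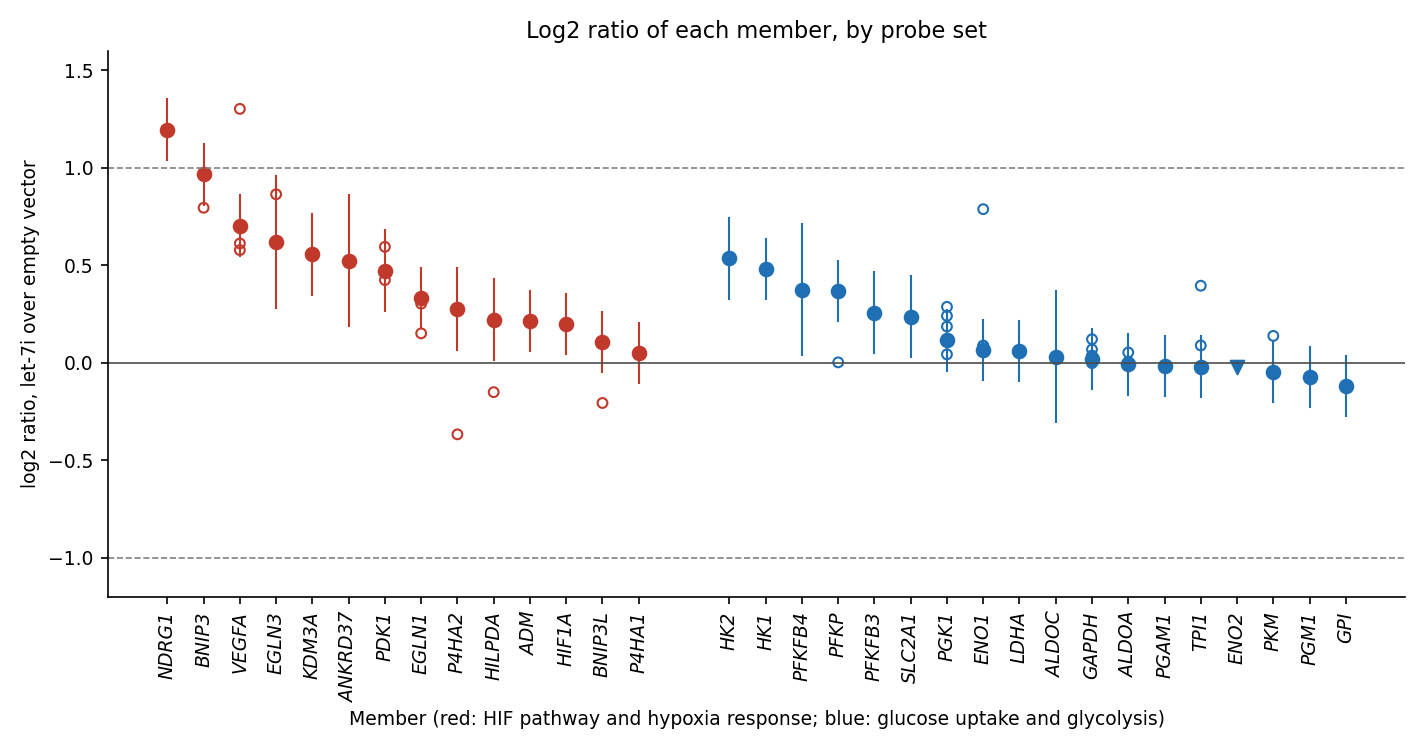
Log2 ratio (let-7i over empty vector) of each member above the floor, ordered within the hypoxia response group (red) and the glycolysis group (blue). Filled circles are the brightest probe set with bars of 1 SD of a single probe set at that signal, open circles other measured probe sets, the triangle a bound (ENO2), and dashed lines mark 2-fold; NDRG1 is the only brightest probe set past a dashed line.

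The glucose uptake and glycolysis members had smaller ratios, most of them near 0. Of 17 genes measured on both arrays 11 were higher and 6 lower. None of the 18 above the floor was past 1.5-fold, where 4.18% of all genes were upward and 5.93% downward. A log2 ratio within 0.2 of 0 was seen in 12 of these 18. The interquartile range of all genes was -0.21 to 0.17, so ratios this small are common among all genes. The median of the glycolysis group was 0.05, a 1.03-fold higher level, and 0.06 without ENO2, whose ratio is a bound. With the mean over probe sets, which also changes the constant used for centring, 16 of the 18 were above 0. PGAM1 and ENO2 crossed 0 there with 1 probe set each, through the centring alone, so the sign of ratios this small is not settled.

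Glucose enters through transporters and is trapped by hexokinases. SLC2A1, the widely expressed glucose transporter, had signals of 1315.5 and 1553 and a log2 ratio of 0.24, and a second, dim probe set (68.4 and 83.4) gave no more than a bound that leaves the direction unsettled. SLC2A3, a transporter with high affinity for glucose, was below the floor on both arrays in all 3 probe sets, with signals of 42.1 and 49.6 in the brightest, and no fold is given. HK2, the hexokinase known for its induction in tumours, had signals of 984 and 1429.7, a 1.45-fold higher level. HK1, the housekeeping hexokinase, had signals of 4758 and 6654, a 1.39-fold higher level. These hexokinases had the highest ratios of the group, 2.58 and 3.11 times the SD of 1 probe set.

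Phosphofructokinase commits the sugar to glycolysis, and the PFKFB enzymes set the level of a sugar phosphate that activates it. PFKP, the platelet form of the enzyme, had signals of 5428 and 7028, a 1.29-fold higher level, and its dim probe set near the floor (96.6 and 97.0) gave 0.00. PFKFB3 had signals of 763 and 914 and a log2 ratio of 0.26. PFKFB4 had dim signals of 155 and 200.8 and a log2 ratio of 0.37, which is 1.11 times the SD of 1 probe set there. GPI, which converts glucose phosphate to fructose phosphate, was the lowest member of all, with signals of 9919.9 and 9166 and a log2 ratio of -0.12. PGM1, which links glycogen to glycolysis, had signals of 4320.1 and 4119.7 and a log2 ratio of -0.07.

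In their brightest probe sets, the enzymes that split the sugar and carry it to lactate had nearly the same signal on both arrays. Other probe sets of PGK1, ENO1 and TPI1 had larger ratios, given below. ALDOA, the aldolase of muscle and most other tissues, had signals of 25647 and 25557, and its 3 probe sets gave log2 ratios between -0.01 and 0.05. GAPDH had 6 measured probe sets with ratios between 0.00 and 0.12, among them the array's own control sets for the 5' end (35105 and 35676), the middle (28936 and 30416) and the 3' end (33292 and 33330.2) of the transcript. PGAM1, a phosphoglycerate mutase, had signals of 20237 and 20038. LDHA, which makes lactate from pyruvate, had signals of 29857 and 31210 and a log2 ratio of 0.06. PKM, the pyruvate kinase, had signals of 16477 and 15987, and a dim second probe set (316 and 348) gave 0.14 beside -0.05.

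PGK1, the phosphoglycerate kinase, was higher in all 6 of its probe sets, by 0.04 to 0.29 on the log2 scale. Among the 4 bright ones the ratio was larger where the signal was lower: 0.11 at signals of 28001 and 30387, 0.19 at 19207 and 21904, 0.24 at 11776 and 13947, and 0.29 at 8739.8 and 10688. The 2 dimmest, with signals of 446 and 460.4 and of 186 and 203, gave 0.04 and 0.12. Other enzymes also differed between probe sets. ENO1, an enolase, had a log2 ratio of 0.07 in its brightest probe set (34162 and 35881) and of 0.79 in its dimmest (191 and 331). Its remaining probe sets, with signals of 25454 and 27076 and of 581 and 619, both gave 0.09. TPI1, triose phosphate isomerase, had -0.02 in its brightest probe set (18562 and 18361). Another bright TPI1 probe set (17399 and 18551) gave 0.09, and a dim one (278 and 367) gave 0.40. ALDOC, an aldolase typical of brain that HIF can induce, had signals of 396 and 406 and a log2 ratio of 0.03. ENO2, the neuronal enolase and another HIF target, had signals of 75.2 and 86.9, which put it below the floor with the empty vector and left its direction unsettled.

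Set against each other, the median of the hypoxia response members lay 0.36 above that of the glycolysis members on the log2 scale, a 1.28-fold difference. All 14 hypoxia response genes lay above the glycolysis median, and 5 of them above the highest glycolysis gene, HK2. Of the 18 glycolysis genes, 9 lay below the lowest hypoxia response gene, P4HA1. Of all 11140 genes measured on both arrays, 4.68% had a ratio as high as HK2 and 42.1% one as high as P4HA1. Most genes thus also lay below P4HA1. The difference between the medians moved with signal. Of the 9 members with a mean signal of at least 10000, 8 were glycolytic enzymes (ALDOA, ENO1, GAPDH, LDHA, PGAM1, PGK1, PKM and TPI1) and 1 was HIF1A. In that signal class 4 of all 404 genes (0.990%) were past 1.5-fold in either direction, against 5.34% of 7100 genes with a mean signal from 500 to 10000 and 17.97% of 4780 dimmer genes.

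Within the class from 500 to 10000, limits that were chosen after the data were seen, the median was 0.33 for 11 hypoxia response genes and 0.26 for 7 glycolysis genes, a difference of 0.07. There all 11 of the former and 5 of the latter were higher with let-7i, against 52.7% of all genes of that class. When probe sets marked _s_at or _x_at, which may bind more than 1 transcript, were left out, 9 and 12 members remained and the difference was -0.03. That setting lost 5 hypoxia response genes (NDRG1, VEGFA, KDM3A, EGLN3 and P4HA1) and 6 glycolysis genes (LDHA, ALDOA, GPI, PGAM1, PGM1 and PFKFB3), which have no other probe set above the floor. It also moved ENO1 and TPI1 to their dimmest probe sets, SLC2A1 to a dim one that gave only a bound (-0.07), and PGK1 to another bright one (0.26). Every hypoxia response gene that remained was higher in each setting tried except the mean over probe sets (12 of 14). The distance from the glycolysis genes shrank in the signal class, which leaves out the bright enzymes, HIF1A and the 5 dim members together, and turned without shared probe sets. The part of signal strength in it was not tested.

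**Figure D3:**
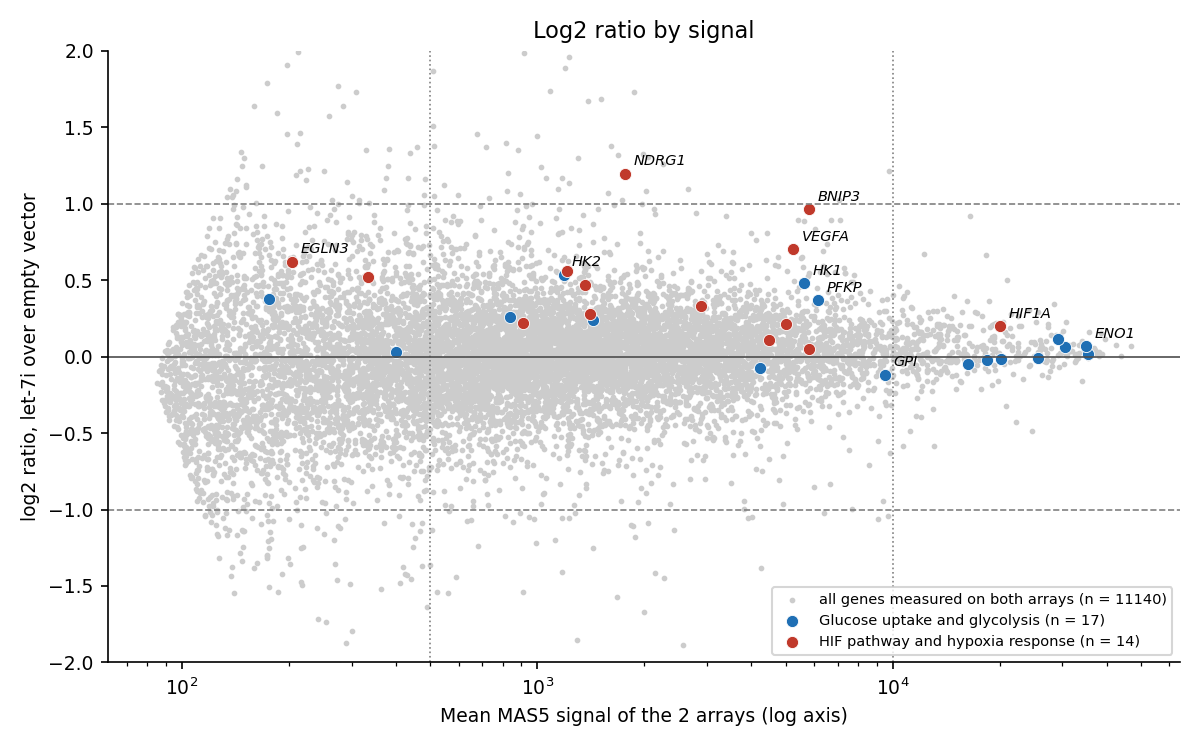
Log2 ratio (let-7i over empty vector) against the mean MAS5 signal of the arrays, on a log axis, for genes measured on both; 14 genes with a ratio beyond 2 lie outside the plot. Grey points are all 11140 genes, red the hypoxia response members, blue the glycolysis members, dashed lines 2-fold and dotted lines signals of 500 and 10000; the blue points right of 10000 lie near 0, as do most grey ones there.

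Promoter sequence was compared because HIF binds a short core, and members of both groups are HIF targets. The core was searched as ACGTG, and separately as GCGTG, on both strands of RefSeq windows that run from 250 bases before to 50 after each annotated start (GRCh38.p14), several per gene where a gene has several starts. A palindromic CACGTG holds the core on both strands and is also the binding letters of other factors. ACGTG was found in 5 of 13 windows of 10 hypoxia response genes (38.5%) and in 15 of 35 windows of 18 glycolysis genes (42.9%), against 21.4% of all 35116 windows. NDRG1, VEGFA, BNIP3L and HILPDA were not among the genes counted. GCGTG was found in 38.5%, 45.7% and 36.5% of the same windows. The windows of the members were also richer in G and C, with a median of 69.0% and 68.0% against 58.7%.

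Stretches with the core are shown, chosen for their contrast in ratio, from 3 members that were at least 1.4-fold higher (BNIP3, ANKRD37 and HK2) and from 3 that differed by less than 1.1-fold in their brightest probe set (LDHA, PGK1 and GAPDH), although other PGK1 probe sets reached 1.22-fold. HK2 has 2 windows, and its stretch lies before the later start and after the earlier one. Capitals mark ACGTG on either strand, all stretches lie before the start site of their own window, and they read along the gene's own strand. They lie at chr10:131982034-131982075 (BNIP3, minus strand), chr4:185396661-185396702 (ANKRD37, plus), chr2:74834958-74834999 (HK2, plus), chr11:18394458-18394499 (LDHA, plus), chrX:78104028-78104069 (PGK1, plus) and chr12:6535165-6535206 (GAPDH, plus).
BNIP3: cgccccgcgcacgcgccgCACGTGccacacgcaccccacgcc
ANKRD37: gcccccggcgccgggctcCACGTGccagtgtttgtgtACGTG
HK2: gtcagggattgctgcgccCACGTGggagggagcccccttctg
LDHA: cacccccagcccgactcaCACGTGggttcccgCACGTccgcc
PGK1: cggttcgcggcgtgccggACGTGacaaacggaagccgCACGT
GAPDH: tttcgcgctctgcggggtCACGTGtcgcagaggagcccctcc

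In BNIP3, ANKRD37, HK2, LDHA and GAPDH the core stands as CACGTG. Its first base lies 134, 162, 194, 87 and 81 bases before the start site of the window it came from. PGK1 carries the core once on each strand, and ANKRD37 and LDHA carry a second copy within the stretch. A match of letters is not a bound site, and these data hold no measure of HIF binding.

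Other genes of the pathway were set beside the members. Above the floor were 33 further HIF-induced genes, of which 24 were higher and 9 lower, at a median log2 ratio of 0.21. In this list 3 were at least 1.5-fold higher and 1 was at least 1.5-fold lower, beside 4.18% and 5.93% of all genes. PPP1R15A, a phosphatase subunit of the stress response, had signals of 682 and 1364 and a log2 ratio of 0.997, just under 2-fold. LOX, which crosslinks collagen, had signals of 379.8 and 683 and was higher in 3 of 3 probe sets (0.66 to 0.84). EDN1, the endothelin precursor, was the lowest, with signals of 1240.5 and 588, but its 3 probe sets ran from -1.17 to 0.30. TGFA, an EGF receptor ligand, had signals of 783 and 585 and a log2 ratio of -0.42, with -0.03 in another probe set.

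Among 16 further regulators of HIF, at a median of 0.09, 12 were higher and 4 lower. SIAH2, a ubiquitin ligase that destroys EGLN proteins, had signals of 676 and 1167, a 1.72-fold higher level. VHL, which targets the hydroxylated HIF subunit, had a log2 ratio of 0.23. HIF1AN, the asparagine hydroxylase that blocks HIF activity, had -0.14 and 3 probe sets between -0.23 and 0.16. OS9 had -0.13 in its brightest probe set and 0.68 in a dimmer one.

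For 27 further genes of glycolysis and pyruvate the median was 0.12, with 17 above 0 and 10 below. Past 1.5-fold lay 1 of them upward and 2 downward, beside 4.18% and 5.93% of all genes. The first is HKDC1, a hexokinase-like enzyme named here after its value was seen, which was above the floor with let-7i alone (58.7 and 139) and so at least 1.58-fold higher. BPGM, which makes bisphosphoglycerate, had signals of 814 and 450.3, 1.81-fold lower, in its 1 measured probe set. SLC16A7, a carrier of pyruvate and lactate, had signals of 1546 and 870.5, 1.78-fold lower, and its 5 measured probe sets lay between -0.83 and -0.39. PDP1, the phosphatase that opposes PDK1, had signals of 2558 and 3551 and a log2 ratio of 0.47, with 0.05 in another probe set. TIGAR, a phosphatase that lowers fructose bisphosphate, had signals of 500.03 and 658 and a log2 ratio of 0.39.

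**Figure D4:**
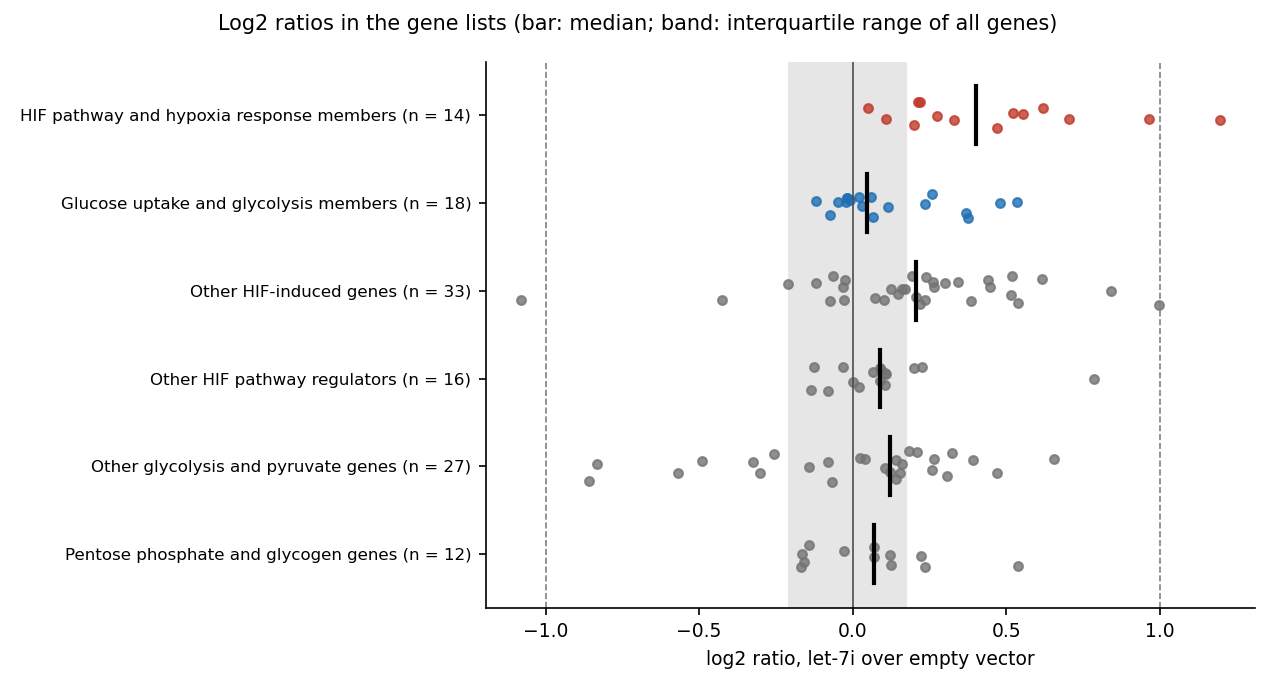
Log2 ratio (let-7i over empty vector) of each gene above the floor in the member groups and the other lists, 1 point per gene with random vertical spread. Black bars are medians, the grey band the interquartile range of all genes (-0.21 to 0.17) and dashed lines 2-fold; the hypoxia response members have the highest median, 0.40, and the other HIF-induced genes have 0.21.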

How the data were processed

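Total RNA of 2 OECM1 cultures was hybridised to 1-colour Affymetrix arrays after biotin labelling, as the labels' protocols say. What the authors deposited are linear signal intensities. Per the submitters' processing notes they come from MAS5, of a version not given in the sources used here. With 1 array a group, the number of arrays limits the precision, and scaling to a common mean hides differences in RNA content of the cells.

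Of 54675 probe sets, 41097 had 1 gene symbol and were used, 1801 had several (2 of them member symbols) and 11777 were not listed. Signals below the floor (50th percentile of the array) were set to it, which makes a ratio a bound, and genes below it on both arrays got none. Centring removed 0.0036. Members and lists were chosen with earlier results of these data known. All members are named; of other lists the 2 highest and 2 lowest ratios among genes measured on both arrays. No test across samples was possible. The code was tested on simulated data. Alternatives were no centring, lowess centring, floors at the 25th or 65th percentile, quantile normalization, a mean over probe sets, no shared probe sets, genes measured on both arrays, and thresholds of 1.5-fold and 3-fold. Computation used NumPy 2.4.6, statsmodels 0.14.6, pandas 2.3.3 and Python 3.11.15, and plots Matplotlib 3.10.9.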

Additional observations from a re-analysis of the deposited data

How the results depend on the processing

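The median log2 ratio of the hypoxia response members was 0.40, and it was smaller with the 65th percentile as floor (0.295), when shared probe sets were left out (0.291) and within signals of 500 to 10000 (0.331). The median of the glycolysis members was 0.05, and it was 0.32 without shared probe sets and 0.257 within that signal range. The difference between these medians was 0.36, became 0.258 with the higher floor and 0.073 within that signal range, and turned to -0.029 without shared probe sets, where 21 members remained. In the other settings it lay between 0.310 and 0.355. The count of members at least 2-fold higher was 1 in each scaling and floor, 4 at 1.5-fold, 0 at 3-fold and 0 without shared probe sets, where NDRG1 has no probe set. No member was lower by any of these thresholds. Of 211 values of single members under the alternatives, 203 moved by less than the SD of 1 probe set and 8 by more. Over all genes, the 25th percentile as floor put 654 past 2-fold upward and 1113 downward, against 130 and 169. No paired analysis was possible because each group has 1 array.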

Other observations

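Genes that branch from glucose 6-phosphate, into the pentose phosphate pathway and glycogen, showed small ratios. Among 12 such genes above the floor, let-7i was the higher array for 7 and the lower for 5, and the median was 0.07. None was past 1.5-fold, where no more than 4.18% of all genes were upward and 5.93% downward. GYS1, the glycogen synthase of muscle and many other cells, had signals of 553 and 805.8 and a log2 ratio of 0.54, and GBE1, the glycogen branching enzyme, had 4825 and 5703 and a ratio of 0.24. Both also stand in the list of HIF-induced genes. TALDO1, the transaldolase, had signals of 13724 and 12241 and a log2 ratio of -0.17, and H6PD, a dehydrogenase of the endoplasmic reticulum, had 505 and 452 and a ratio of -0.16.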
